A study of Mus musculus with 96 samples.

Results

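The chains of collagen IV and of the main renal laminins were followed through the dissected mouse nephron as 10 genes, taken by symbol from the 54532 genes of the expression table. They were the 6 collagen IV genes Col4a1 to Col4a6 and the 4 laminin genes Lama5, Lamb1, Lamb2 and Lamc1, and all 10 of 10 reached at least 1 TPM, the length-scaled transcript unit of the table, in at least 3 mice. The study measured polyadenylated RNA by ultra-low input RNA sequencing in 93 hand-dissected samples in 15 structures, which made 53 combinations of a mouse number and a structure. Each combination was counted as 1 mouse, and whether the same number in another structure means the same animal is not given in the labels. Each structure was represented by 3 to 5 mice, and pieces of a structure that carried the same mouse number were averaged before any comparison, so that n counts mice. TPM divide by transcript length and scale every sample to the same total, so levels of different genes can be set side by side, but they keep no read depth.

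All mice were untreated, pathogen-free C57BL/6 males 6 to 8 weeks old on normal chow and free drinking water, with no genetic or other manipulation in any of the 15 groups. The groups were glomeruli (GL, 3 mice) and the proximal tubule in its initial convoluted (PTS1, 3), cortical straight (PTS2, 5) and outer stripe (PTS3, 3) stretches. The thin limbs were the descending limb of short loops (DTL1, 3), that of long loops in the outer medulla (DTL2, 3) and in the inner medulla (DTL3, 3), and the thin ascending limb (ATL, 4). Farther on came the thick ascending limb, medullary (MTAL, 3) and cortical (CTAL, 5), then the distal convoluted (DCT, 3) and connecting (CNT, 3) tubules. Collecting ducts were dissected from the cortex (CCD, 5) and from the outer (OMCD, 4) and inner (IMCD, 3) medulla. Mice are named below by the number in their labels, which was not taken to mark the same animal across structures, and p-values measure the spread between these mice.

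Basement membranes are sheets of extracellular matrix on which epithelia and endothelia rest, built on a laminin network and a collagen IV network that are tied together by nidogens and heparan sulphate proteoglycans. Collagen IV chains assemble in threes: alpha 1 and alpha 2 form the widespread trimer, alpha 3, alpha 4 and alpha 5 the trimer of the mature glomerular basement membrane that is lost in Alport syndrome, and alpha 5 and alpha 6 a further trimer known from Bowman's capsule and some tubules. Laminins hold 1 alpha, 1 beta and 1 gamma chain. The mature glomerular laminin is made of the products of Lama5, Lamb2 and Lamc1, Lamb1 supplies the beta chain of the form that precedes it in development, and loss of LAMB2 causes Pierson syndrome.

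The structures carried their defining transcripts, among them Synpo (podocytes) at 1700.1 TPM in GL, Slc5a2 at 2792 TPM in PTS1, Cldn10 at 3517 TPM in ATL, Umod at 36935 TPM in CTAL and Aqp2 at 27393 TPM in IMCD. Libraries differed in how many genes reached 1 TPM: 11474 to 14712 in PTS1, PTS2, PTS3, MTAL, CTAL, DCT, CNT, CCD and IMCD, against 23597 to 29280 in GL and 20104 to 29454 in DTL1, DTL2 and DTL3. ATL was split, with 13532 and 13949 genes in mice 3 and 2 but 23465 and 24647 in mice 4 and 6, and OMCD lay at 17213 to 20867. Odorant and vomeronasal receptor transcripts, which the kidney is not known for, broadly but not strictly followed these counts. They summed to 2689 to 4286 TPM in DTL1 and 1185 to 2646 TPM in GL. In ATL they summed to 61.0 to 114 TPM in mice 2 and 3 against 2294 and 2646 in mice 6 and 4. PTS1 lay above ATL mice 2 and 3, at 159 to 297 TPM, and within DTL1 the mouse with the fewest genes had the highest sum. The part that these differences between libraries played in the results was not tested. Calls of the members between ATL and a neighbouring segment, and of members highest in ATL, were also made with each pair of ATL mice alone.

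The 6 collagen IV genes lie in 3 head-to-head pairs, each pair sharing the stretch from which both genes are read in opposite directions. Sequence at or near the starts of each pair is shown, and its part in the levels of the genes was not tested. Positions are those of the GENCODE M21 annotation on GRCm38, matched by gene identifier, and the bases are from RefSeq's promoter windows on GRCm38.p6. The build the authors aligned to is not given in the sources used here. Col4a1 (chr8:11198423-11312826, minus strand) and Col4a2 (chr8:11312805-11449287, plus strand) overlap by 22 exonic bases at chr8:11312805-11312826, given on the plus strand. Col4a4 (chr1:82448423-82586849, minus strand) and Col4a3 (chr1:82586921-82722059, plus strand) are 71 bases apart at chr1:82586850-82586920, given on the minus strand. Col4a6 (chrX:141165403-141474076, minus strand) and Col4a5 (chrX:141475385-141689234, plus strand) start 1309 bases apart, and the bases just before each start are shown on the gene's own strand, at chrX:141474077-141474326 and chrX:141475169-141475384. The stretches before Lamb1 (chr12:31265234-31329644, plus strand) and Lamb2 (chr9:108479736-108490530, plus strand), the alternative beta chains, are chr12:31265043-31265233 and chr9:108479612-108479735, both on the plus strand. Capitals mark GGGCGG (GC box) and CCAAT on either strand.
Col4a1 and Col4a2, shared 5′ ends: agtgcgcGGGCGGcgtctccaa
Between Col4a4 and Col4a3: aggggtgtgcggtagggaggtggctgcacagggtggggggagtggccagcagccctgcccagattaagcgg
Upstream of Col4a6: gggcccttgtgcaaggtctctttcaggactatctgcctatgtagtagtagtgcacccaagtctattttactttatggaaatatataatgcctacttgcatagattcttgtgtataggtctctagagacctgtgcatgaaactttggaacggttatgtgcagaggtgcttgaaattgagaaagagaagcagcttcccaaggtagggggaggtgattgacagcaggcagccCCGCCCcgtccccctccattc
Upstream of Col4a5: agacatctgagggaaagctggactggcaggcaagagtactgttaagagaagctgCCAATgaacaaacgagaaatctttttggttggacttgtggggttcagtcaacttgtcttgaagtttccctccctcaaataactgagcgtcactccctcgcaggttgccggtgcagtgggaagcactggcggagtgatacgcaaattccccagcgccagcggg
Upstream of Lamb1: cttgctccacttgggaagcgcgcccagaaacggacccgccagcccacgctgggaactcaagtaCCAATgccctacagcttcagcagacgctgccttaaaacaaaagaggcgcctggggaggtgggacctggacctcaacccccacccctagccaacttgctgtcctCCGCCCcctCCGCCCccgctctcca
Upstream of Lamb2: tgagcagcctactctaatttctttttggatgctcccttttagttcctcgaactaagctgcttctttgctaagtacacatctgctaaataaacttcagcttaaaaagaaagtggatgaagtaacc

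Windows were matched for 8 of the 10 genes, all but Col4a3 and Lamc1. The start of a window is that of RefSeq, which can differ from the GENCODE start given above. In the 250 bases before the RefSeq start, GGGCGG (or CCGCCC on the other strand) occurred for 5 of these 8 genes. It occurred once each for Col4a5 and Col4a6, 2 times each for Col4a2 and Lamb1 and 4 times for Lama5, and in 32.7% of all 32851 windows. The stretch shown before Col4a5 is only 216 bases long and holds 0 of these matches, so the match counted for Col4a5 lies outside it. The stretches before Lamb1 and Lamb2 are 191 and 124 bases long. For Col4a5, Lamb1 and Lamb2 the rest of the 250 bases lies past the GENCODE start. CCAAT (or ATTGG) occurred once each for Col4a1, Col4a2, Col4a5 and Lamb1, against 33.9% of all windows. TATAAA (or TTTATA) occurred for 0 of the 8, against 12.4% of all windows, and no occurrences of these 3 motifs overlapped in the sequences shown. Base composition was close between Col4a1 and Col4a2 and differed more between the beta chains: G and C made up 74.4% of the 250 bases before Col4a1 and 73.6% before Col4a2, 62.0% before Lamb1, 54.0% before Col4a5, 47.6% before Col4a6 and 43.6% before Lamb2, with a median of 52.4% over all windows. A match of letters is a description of sequence and not a binding site. Exons of Col4a3 overlap those of C430014B12Rik on the opposite strand over 563 bases. Whether reads were counted by strand is not given in the sources used here, and C430014B12Rik itself lay between 1.09 TPM in CNT and 9.03 TPM in ATL on average.

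All 10 genes differed among the 15 structures (limma moderated F-test, largest Benjamini-Hochberg adjusted p = 2.3e-19 for Col4a4), as did 93.9% of all genes tested, so the count says little about these genes in particular. What distinguished them was where each was high, and 3 patterns stood out. Col4a1 and Col4a2 were highest in GL and lowest in IMCD and ATL, and within ATL they were lower in mice 2 and 3, the libraries with fewer genes detected, than in mice 4 and 6. Col4a3, Col4a4, Col4a5 and Col4a6 were high in ATL, together with GL and DTL3 for the first pair. Lamb1 was highest in DTL3 and nearly absent from IMCD, while Lamb2 was highest in GL and low only in the proximal tubule. In bulk samples such as these, fewer cells of a type and less RNA per cell cannot be told apart.

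Col4a1 encodes the chain of which the widespread trimer holds 2 copies. In GL it measured 237, 278 and 464 TPM in the 3 mice, a mean of 326 ± 121 (SD, n = 3). The 3 GL mice lay above every mouse of every tubule segment, the nearest being the OMCD mice at 96.2, 115, 166 and 178 TPM. CCD (113 to 144 TPM), DTL1 (104 to 141) and CNT (108 to 115) followed closely, and the steps between them did not pass the test. At the other end Col4a1 measured 0.61, 1.14, 13.2 and 5.76 TPM in ATL mice 2, 3, 4 and 6, and 0.72, 3.59 and 4.53 TPM in the IMCD mice. ATL and IMCD overlapped each other, and ATL mouse 4 lay above the MTAL range of 7.46 to 12.8 TPM. The mean ran from 326 TPM in GL to 2.94 ± 1.98 in IMCD (n = 3), a ratio of 111. Of the 14 steps in the order of Col4a1 means, 2 passed the test at an adjusted p under 0.05, GL above OMCD and MTAL above ATL, the latter with ATL mice 2 and 3 but not with mice 4 and 6 alone.

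Col4a2, the partner chain, shared the extremes of Col4a1 but not the order between them. It measured 141, 167 and 294 TPM in the GL mice (mean 201 ± 81.9, n = 3), and the next highest was DTL2 with 34.8, 46.6 and 58.4 TPM. The GL mice lay clear of all others by more than 2-fold. ATL was at 0.04, 0.01, 3.13 and 1.17 TPM in mice 2, 3, 4 and 6 and IMCD at 0.113, 0.423 and 1.3 TPM, both below every mouse of the other 13 structures. Across the 15 structure means of log2(TPM + 1), Col4a1 and Col4a2 correlated at r = 0.97 (n = 15, structures sharing libraries between the genes), and each was the gene most like the other among 33792. The ratio was not constant, however. Col4a2 divided by Col4a1 on the log2(TPM + 1) scale was -0.71 ± 0.05 in GL (SD, n = 3) but -2.005 ± 0.10 in CCD (n = 5), with ranges of -0.75 to -0.66 and -2.16 to -1.88 that did not overlap. On this scale the ratio was also low in CNT (-1.74) and OMCD (-1.87) and was highest in MTAL (-0.41). The added 1 TPM pulls the ratio toward 0 where both genes are low, as in ATL and IMCD.

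**Figure D1:**
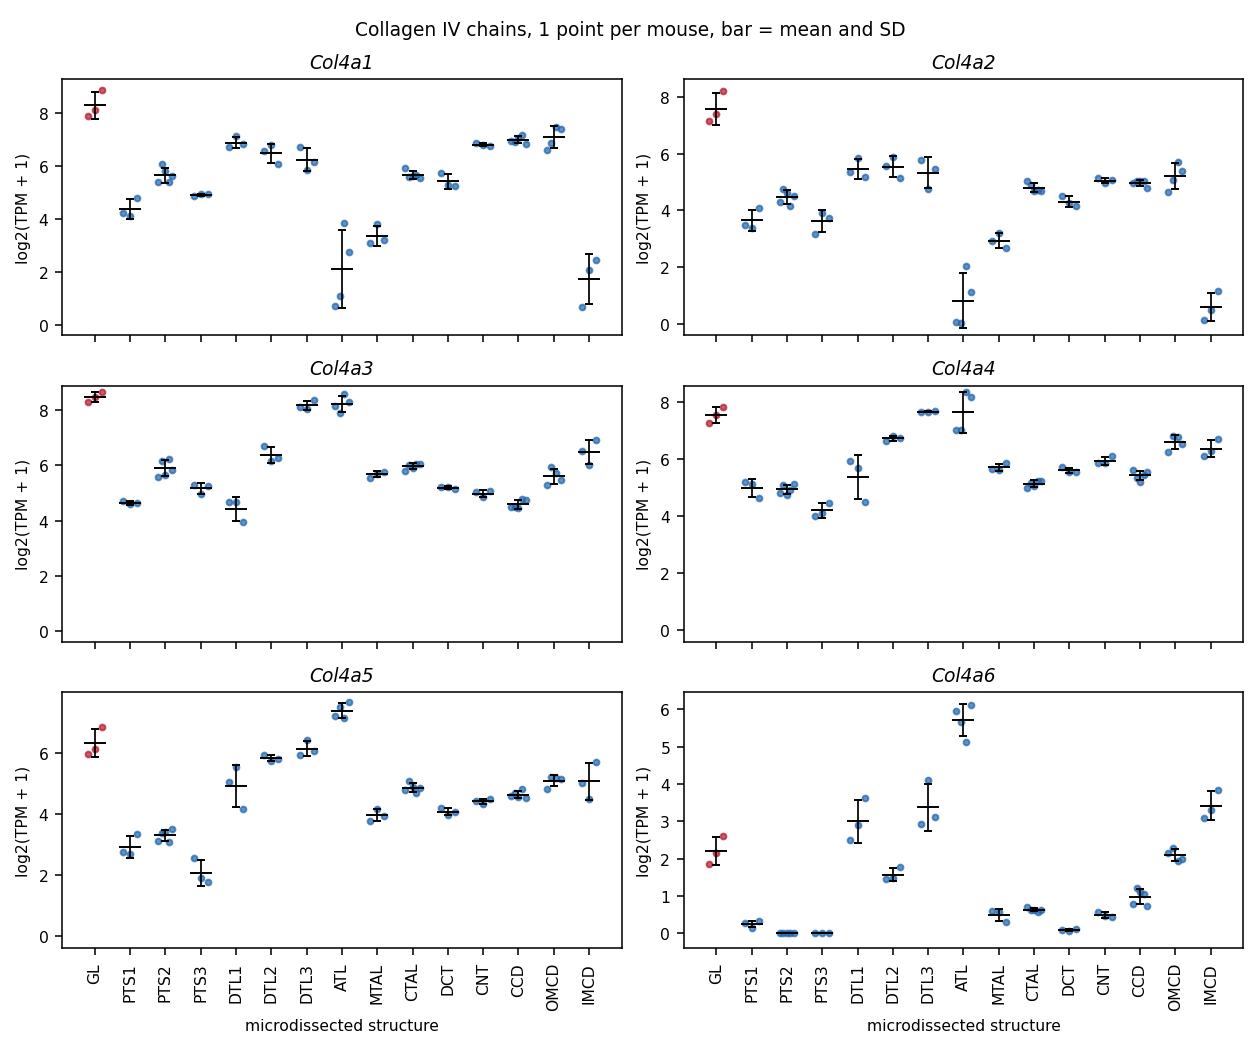
Level of the 6 collagen IV genes as log2(TPM + 1) (vertical axis) in the 15 structures (horizontal axis), with 1 point per mouse, GL in red, and bars for the mean and SD over 3 to 5 mice. Col4a1 and Col4a2 drop in ATL and IMCD, where Col4a3, Col4a4, Col4a5 and Col4a6 do not, and Col4a6 is near 0 in PTS2 and PTS3.

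Col4a3 and Col4a4 encode chains of the alpha 3, alpha 4, alpha 5 network. Col4a3 measured 315, 356 and 401 TPM in GL, 236 to 386 TPM in the 4 ATL mice and 262 to 328 TPM in the 3 DTL3 mice. These 3 structures overlapped, and all of their mice lay above every mouse of the other 12, where the highest was 121 TPM in IMCD. The step from DTL3 down to IMCD, 1.69 on the log2 scale, passed the test (limma, SE 0.19, adjusted p = 1.45e-09). The lowest means were those of DTL1 (21.2 TPM), CCD (23.1) and PTS1 (24.1). Col4a3 therefore ranged over a ratio of 16.9 between means.

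Col4a4 was likewise high in DTL3 (201, 197 and 204 TPM), ATL and GL (151, 185 and 226 TPM), with 105.3 TPM in DTL2 next. In ATL it followed the split between libraries, at 127 and 129 TPM in mice 2 and 3 but 320 and 284 TPM in mice 4 and 6, so ATL spanned values below and above those of GL and DTL3. PTS3 was lowest at 16.0, 16.8 and 21.2 TPM. The 2 genes were not locked together: the log2 ratio of Col4a4 to Col4a3 was -0.94 ± 0.12 in GL (n = 3) and -0.83 ± 0.03 in CTAL (n = 5) but 0.99 ± 0.08 in OMCD (n = 4), 0.96 ± 0.13 in CNT and 0.93 ± 0.35 in DTL1 (both n = 3). All GL, PTS2, PTS3, CTAL, DTL3 and ATL mice had less Col4a4 than Col4a3, and all DTL1, DCT, CNT, CCD and OMCD mice had more. Over the 15 means r was 0.83, against 0.97 for Col4a1 and Col4a2.

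Col4a5, the X-linked chain that both the glomerular and the alpha 6 trimer need, was highest in ATL at 148, 180, 141 and 205 TPM in mice 2, 3, 4 and 6. GL followed with 61.7, 69.5 and 114 TPM and DTL3 with 60.4, 84.9 and 66.6 TPM, none of them reaching the lowest ATL mouse. The proximal tubule was lowest, with means of 8.94 TPM in PTS2, 6.81 in PTS1 and 3.48 ± 1.48 in PTS3. Col4a5 was less abundant than the sum of Col4a3 and Col4a4 in every structure, with a mean log2 ratio between -3.64 in PTS3 and -1.03 in DTL1. Over the 15 means it was closest among the members to Col4a4 (r = 0.91) and then Col4a6 (r = 0.82).

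Col4a6 measured 61.2, 49.3, 33.9 and 67.8 TPM in ATL mice 2, 3, 4 and 6 (mean 53.0 ± 14.9, n = 4). DTL3 came next with 6.61, 16.1 and 7.9 TPM together with IMCD at 8.10, 8.97 and 13.4 TPM, all of them below the lowest ATL mouse. It was listed at 0 in all 3 PTS3 mice and at 0 to 0.01 TPM in PTS2, while PTS1, MTAL, CTAL, DCT and CNT lay between 0.055 and 0.63 TPM. Col4a6 made up 7.40% of the summed collagen IV TPM in ATL and 4.55% in IMCD, but 0.322% in GL.

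Lama5 encodes the alpha chain of the mature renal laminins. It was high in ATL (108, 106, 156 and 111 TPM in mice 2, 3, 4 and 6), IMCD (141, 115 and 94.3 TPM) and OMCD (93.4 to 126 TPM), which overlapped. DTL1 (85.8 to 115 TPM) and DTL3 (68.5 to 113 TPM) overlapped these ranges as well. GL was not among the highest and was the most variable, with 42.1, 63.9 and 112 TPM. PTS1 and PTS2 were lowest, at means of 8.43 and 9.47 TPM. PTS3 (15.9 to 25.0 TPM) overlapped DCT (18.0 to 20.1 TPM) and MTAL, and of the 14 steps in the order of mean log2 levels only that from PTS3 to PTS2 had a limma adjusted p under 0.05 (0.97 on the log2 scale, adjusted p = 0.00341), a difference just under the fold threshold of 1 used for the neighbour contrasts.

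Lamb1, the beta chain of the earlier laminin form, was highest in DTL3 at 333, 240 and 335 TPM. DTL1 followed at 145, 219 and 117 TPM and CTAL at 131 to 157 TPM, all below the lowest DTL3 mouse. In GL it measured 50.6, 42.9 and 53.3 TPM. IMCD stood apart at 2.48, 1.44 and 0.897 TPM (mean 1.61 ± 0.804, n = 3), below every mouse of the other 14 structures, of which the lowest was a PTS1 mouse at 9.26 TPM. The ratio between the DTL3 and IMCD means was 188.

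Lamb2, the beta chain of the mature glomerular laminin, measured 315, 334 and 474 TPM in GL (mean 374 ± 86.6, n = 3). Every GL mouse lay above all tubule mice, of which the highest was a CNT mouse at 119 TPM. PTS1, PTS2 and PTS3 held only 2.20 to 2.72, 1.56 to 4.11 and 2.26 to 5.1 TPM, and every other segment had at least 32.4 TPM in each mouse. The order of Lamb2 thus had 2 steps that passed the test, GL above CNT and MTAL above PTS3 (3.13 on the log2 scale, SE 0.25, limma adjusted p = 3e-14). In IMCD, where Lamb1 was nearly absent, Lamb2 remained at 55.3, 98.3 and 114 TPM.

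Lamc1, the gamma chain found in most laminins, was highest in OMCD (51.2 to 61.6 TPM) and GL (39.3, 41.3 and 62.3 TPM), whose mice overlapped. It was lowest in PTS1, PTS2 and PTS3 with means of 3.35, 3.72 and 3.20 TPM. Its log2 ratio to the sum of Lamb1 and Lamb2 was negative in every structure, from -4.44 ± 0.16 in DTL3 to -1.89 ± 0.24 in IMCD (both n = 3). Over the 15 means Lamc1 was closest among the members to Lamb2 (r = 0.91) and Lama5 (r = 0.88), and Lamb1 to Col4a2 (r = 0.67) and Col4a1 (r = 0.66).

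**Figure D2:**
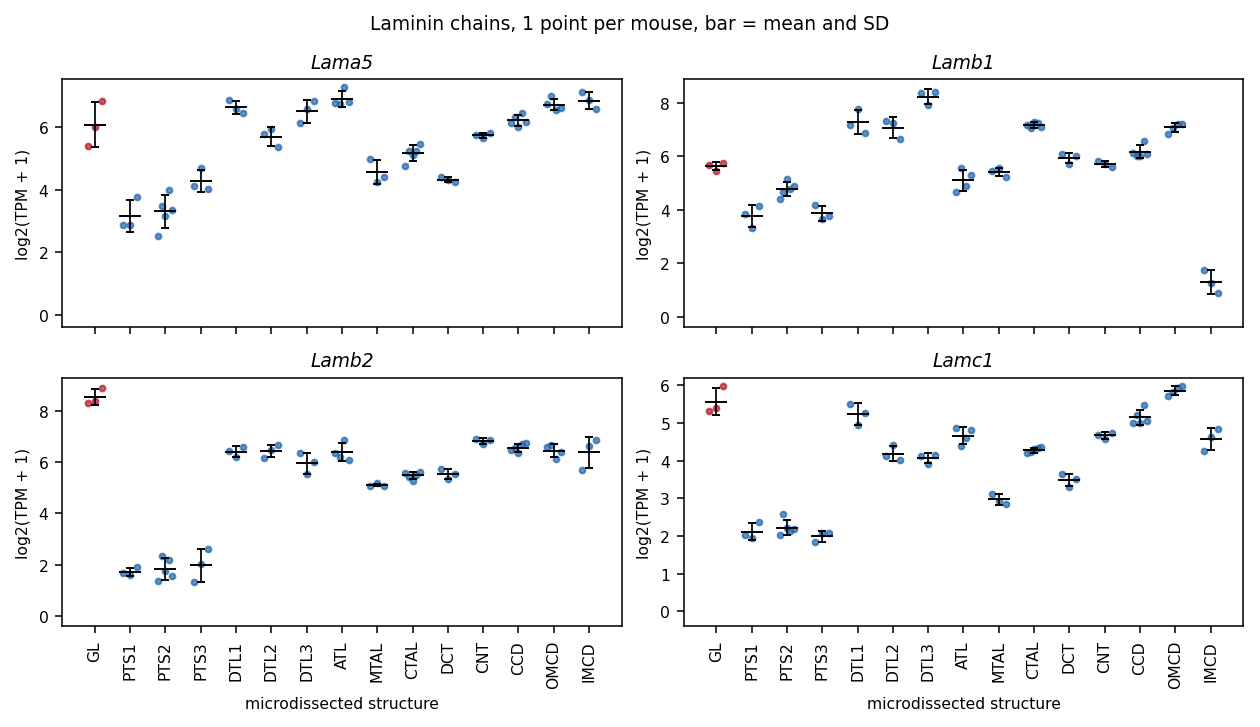
Level of the 4 laminin genes as log2(TPM + 1) (vertical axis) in the 15 structures (horizontal axis), with 1 point per mouse, GL in red, and bars for the mean and SD over 3 to 5 mice. Lamb1 falls to 0.897 to 2.48 TPM in IMCD, and Lamb2 and Lamc1 are lowest in PTS1, PTS2 and PTS3.

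Glomeruli were set against the unweighted mean of the 14 tubule segments, the comparison of the filtration barrier with the tubule. Of the members 7 of 10 were higher in GL and the other 3 did not pass, at an adjusted p under 0.05 and a log2 difference of at least 1. Over all genes 35.6% passed, 31.6% higher in GL and 3.94% lower, and the median gene was 0.69 higher in GL on the log2(TPM + 1) scale. The largest differences were those of Col4a2 (3.53, SE 0.24, limma Benjamini-Hochberg adjusted p = 8.51e-17), Lamb2 (3.31, SE 0.19, adjusted p = 7.07e-20), Col4a1 (3.04, SE 0.31, adjusted p = 1.32e-11) and Col4a3 (2.66, SE 0.14, adjusted p = 1.05e-20). Col4a5 (1.69), Col4a4 (1.66) and Lamc1 (1.61) followed. Col4a6 (0.62) and Lama5 (0.65) were under the fold threshold and no larger than the median gene, and Lamb1 differed by -0.00 (SE 0.17, limma adjusted p = 0.996). The same 7 genes passed after median ratio rescaling, where the median gene moved to 0.48 and Lamb1 to -0.42, and after quantile normalization, where Col4a6 turned to -0.41 and Lamb1 stood at -0.57. With a pseudocount of 0.1 Col4a6 rose to 1.59 and was called (limma adjusted p = 9.16e-07), while the median gene stood at 1.53.

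A stricter test asked whether a gene was higher in 1 structure than in each of the other 14. The test took p-values for a difference above 0, and called a gene only if the smallest estimated log2 difference was also at least 1. For GL it called 3 of the 10 members, against 3.22% of all genes: Col4a2 (smallest difference 2.04, SE 0.33, over DTL2, limma adjusted p = 6.2e-06), Lamb2 (1.71, SE 0.25, over CNT, adjusted p = 1.06e-06) and Col4a1 (1.21, SE 0.39, over OMCD, adjusted p = 0.0411). For ATL it called 2 of 10, against 0.394% of all genes: Col4a6 (2.29, SE 0.23, over IMCD, limma adjusted p = 5.24e-10) and Col4a5 (1.07, SE 0.23, over GL, adjusted p = 0.00351). Lamb1 in DTL3 missed the fold threshold with 0.95 (SE 0.23, limma adjusted p = 0.023). The Col4a1 call was lost without GL mouse 2 (limma adjusted p = 0.0728) or 3 (0.306), DTL1 mouse 1 (0.0795) or 5 (0.065), or OMCD mouse 1 (0.151) or 2 (0.106). It was also lost with a pseudocount of 0.1 (limma adjusted p = 0.278) and after median ratio rescaling (0.0812). The Col4a5 difference fell under 1 without GL mouse 1 (0.90) or 2 (0.98) or ATL mouse 6 (0.98). It also fell under 1 with the mouse number as a replicate block (0.96), and the call was lost. With ATL mice 2 and 3 alone the Col4a6 and Col4a5 differences were 2.38 and 1.05, with mice 4 and 6 alone 2.19 and 1.10, and all 4 passed the test.

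Between neighbouring segments members were called in most contrasts, and the share of all genes called differed as well, from 1.12% between CNT and CCD to 65.5% between PTS3 and DTL1. Over 14 contrasts of 10 genes, 61 of 140 tests passed at an adjusted p under 0.05 and a log2 difference of at least 1. From OMCD to IMCD, 5 of 10 passed against 18.6% of all genes, of which 15.2% were higher in OMCD and 3.4% in IMCD. Lamb1 was higher in OMCD by 5.79 on the log2 scale (SE 0.21, limma adjusted p = 5.42e-26), Col4a1 by 5.36 (SE 0.39, adjusted p = 2.34e-15), Col4a2 by 4.61 (SE 0.31, adjusted p = 1.62e-16) and Lamc1 by 1.29. Col4a6 was higher in IMCD, the difference OMCD minus IMCD being -1.32 (SE 0.23, limma adjusted p = 8.96e-06) and -0.84, under the fold threshold, with a pseudocount of 5. Col4a3 (-0.88, limma adjusted p = 0.000122) stayed under the fold threshold, and Lama5 (-0.13), Lamb2 (0.06), Col4a4 (0.23) and Col4a5 (0.02) did not pass. After median ratio rescaling 4 members were called higher in OMCD and 2 higher in IMCD, and after quantile normalization 3 and 2.

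From the descending limb of the inner medulla to the thin ascending limb, DTL3 to ATL, 5 of 10 passed against 14.6% of all genes, of which 11.8% were higher in DTL3 and 2.86% in ATL. Col4a2 (4.52, SE 0.31, limma adjusted p = 5.48e-16), Col4a1 (4.14, SE 0.39, adjusted p = 1.18e-11) and Lamb1 (3.12, SE 0.21, adjusted p = 3.53e-16) were higher in DTL3, and Col4a6 (-2.33) and Col4a5 (-1.25) were higher in ATL. Col4a3 (-0.06, SE 0.18) and Col4a4 (0.03, SE 0.24) did not pass. The 5 calls held with either pair of ATL mice, Col4a1 at 5.34 with mice 2 and 3 and 2.94 with mice 4 and 6. From ATL to MTAL, 9 of 10 passed against 28.1% of all genes (22.6% higher in ATL and 5.43% in MTAL), 7 of the members higher in ATL with Col4a6 (5.22, SE 0.23, limma adjusted p = 4.17e-23) and Col4a5 (3.43) in front, and Col4a2 (-2.13) and Col4a1 (-1.26) higher in MTAL. Col4a2 differed by -2.90 with ATL mice 2 and 3 alone and by -1.36 with mice 4 and 6 alone. Neither reached a difference of 1 with a pseudocount of 5, at -0.98 for Col4a2 and -0.66 for Col4a1. Median ratio rescaling gave 6 members higher in ATL, Lamb2 being at 0.98, and 2 in MTAL, and quantile normalization 7 and 2. The Col4a1 difference rested on ATL mice 2 and 3: it was -2.46 with those alone and -0.06 (limma adjusted p = 0.96) with mice 4 and 6 alone, and it was lost without ATL mouse 2 (-0.79), ATL mouse 3 (-0.93) or MTAL mouse 2 (adjusted p = 0.057).

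At the start of the thin limb, 9 of 10 members were higher in DTL1 than in PTS3, against 65.5% of all genes called, 61.8% in this direction and 3.75% in the other. All 10 were higher in DTL2 than in PTS3, against 40% of all genes called, 36.2% in this direction and 3.85% in the other. Lamb2 differed most, PTS3 minus DTL1 being -4.43 (SE 0.25, limma adjusted p = 2.61e-19) and PTS3 minus DTL2 -4.45 (SE 0.25, adjusted p = 2.3e-19), followed by Lamb1 (-3.41) against DTL1 and Col4a5 (-3.75) against DTL2. The median gene was itself 1.33 lower in PTS3 than in DTL1 and 0.71 lower than in DTL2. After median ratio rescaling 6 members were higher in DTL1 and 1 in PTS3, and 6 were higher in DTL2, and after quantile normalization the counts were 7, 1 and 4. With a pseudocount of 5 the Col4a6 difference from DTL2 was -0.49 and its call was lost. The Col4a4 call against DTL1 was lost without DTL1 mouse 1 (-0.89) and after median ratio rescaling (-0.10), and the sign turned after quantile normalization (0.18, limma adjusted p = 0.69).

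Within the thin descending limb DTL1 and DTL2 differed in 4 of 10 members, against 28.2% of all genes (25.2% higher in DTL1 and 2.99% in DTL2), with Col4a3 (-1.94, SE 0.19, limma adjusted p = 8.05e-11) and Col4a4 (-1.36) higher in DTL2 and Col4a6 (1.43) and Lamc1 (1.05) higher in DTL1. The Lamc1 difference fell to 0.91 without DTL1 mouse 1 and 0.97 without DTL2 mouse 3, and that of Col4a4 to -0.92 without DTL1 mouse 5. Both calls higher in DTL1 were lost with a pseudocount of 5, Col4a6 at 0.79 and Lamc1 at 0.90. After median ratio rescaling 1 member was higher in DTL1 and 2 in DTL2, and after quantile normalization 0 and 3. From DTL2 to DTL3, 3 of 10 passed against 9.58% of all genes (3.5% higher in DTL2 and 6.08% in DTL3), all higher in DTL3: Col4a6 (-1.81), Col4a3 (-1.80) and Lamb1 (-1.15, or -0.93 without DTL2 mouse 3).

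In the thick limb, MTAL and CTAL differed in 4 of 10 members against 3.15% of all genes (0.589% higher in MTAL and 2.57% in CTAL), all higher in CTAL: Col4a1 (-2.31, SE 0.38, limma adjusted p = 1.94e-05), Col4a2 (-1.86, SE 0.30, adjusted p = 1.37e-05), Lamb1 (-1.75, SE 0.20, adjusted p = 1.24e-08) and Lamc1 (-1.31, SE 0.15, adjusted p = 1.57e-08). The MTAL and CTAL mice did not overlap for any of these 4 genes, Col4a1 being 7.46 to 12.8 TPM in MTAL and 46.3 to 59.4 TPM in CTAL. Col4a3 (-0.29), Col4a4 (0.58) and Lamb2 (-0.37) did not pass. The same number, 4 of 10, was called higher in CTAL after either rescaling, and 3 with a pseudocount of 5, where Lamc1 was at -0.98. From CTAL to DCT, 1 of 10 passed against 4.35% of all genes (2.34% higher in CTAL and 2.01% in DCT), Lamb1 with 1.23 (SE 0.20, limma adjusted p = 1.11e-05).

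From DCT to CNT, 4 of 10 members were higher in CNT, against 5.22% of all genes (1.52% higher in DCT and 3.7% in CNT): Lama5 (-1.41, SE 0.27, limma adjusted p = 0.000172), Col4a1 (-1.38, SE 0.42, adjusted p = 0.0219), Lamb2 (-1.29, SE 0.25, adjusted p = 0.000214) and Lamc1 (-1.18, SE 0.17, adjusted p = 8.26e-07). For all 4 the DCT and CNT mice did not overlap, but the Col4a1 call was lost without DCT mouse 2 or 3 or any 1 of the 3 CNT mice (limma adjusted p = 0.0579 to 0.0921). After median ratio rescaling 1 member was called and after quantile normalization 2, all higher in CNT, and with a pseudocount of 5 Lamc1 (-0.95) was lost. Between CNT and CCD limma called 0 of 10 members, 5 having an unadjusted p under 0.05, against 1.12% of all genes (0.438% higher in CNT and 0.681% in CCD). Between CCD and OMCD 3 of 10 passed against 12.1% (1.73% higher in CCD and 10.4% in OMCD), all higher in OMCD: Col4a4 (-1.16), Col4a6 (-1.12) and Col4a3 (-1.01). The last fell under 1 without CCD mouse 1, 2 or 3 or OMCD mouse 2 or 3, at -0.99 to -0.91. Median ratio rescaling gave 1 call, quantile normalization 2 and a pseudocount of 5 gave 1, all higher in OMCD. Col4a3 and Col4a6 lost their calls in each of these settings, Col4a6 at -0.99, -0.30 and -0.47 in that order. The 2 calls after quantile normalization therefore included a member other than the 3 named.

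Between PTS1 and PTS2, 3 of 10 passed against 9.57% of all genes (4.46% higher in PTS1 and 5.1% in PTS2), all higher in PTS2: Col4a1 (-1.27, SE 0.38, limma adjusted p = 0.0108), Col4a3 (-1.25) and Lamb1 (-1.01). Without PTS1 mouse 1 or 2 the Col4a1 call was lost (limma adjusted p = 0.0572 and 0.0741), and without PTS1 mouse 2, PTS2 mouse 4 or the PTS2 column that matches no sample title the Lamb1 difference fell under 1 (-0.78, -0.92 and -0.98). Quantile normalization gave 0 calls and median ratio rescaling 2, both higher in PTS2. Between PTS2 and PTS3, 1 of 10 passed against 4.7% of all genes (3.94% higher in PTS2 and 0.755% in PTS3), Col4a5 with 1.22 (SE 0.22, limma adjusted p = 4e-05). With a pseudocount of 5 the difference was 0.74 and the call was lost. After median ratio rescaling 1 member was called higher in PTS2 and 1 in PTS3, and after quantile normalization 0 and 1.

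**Figure D3:**
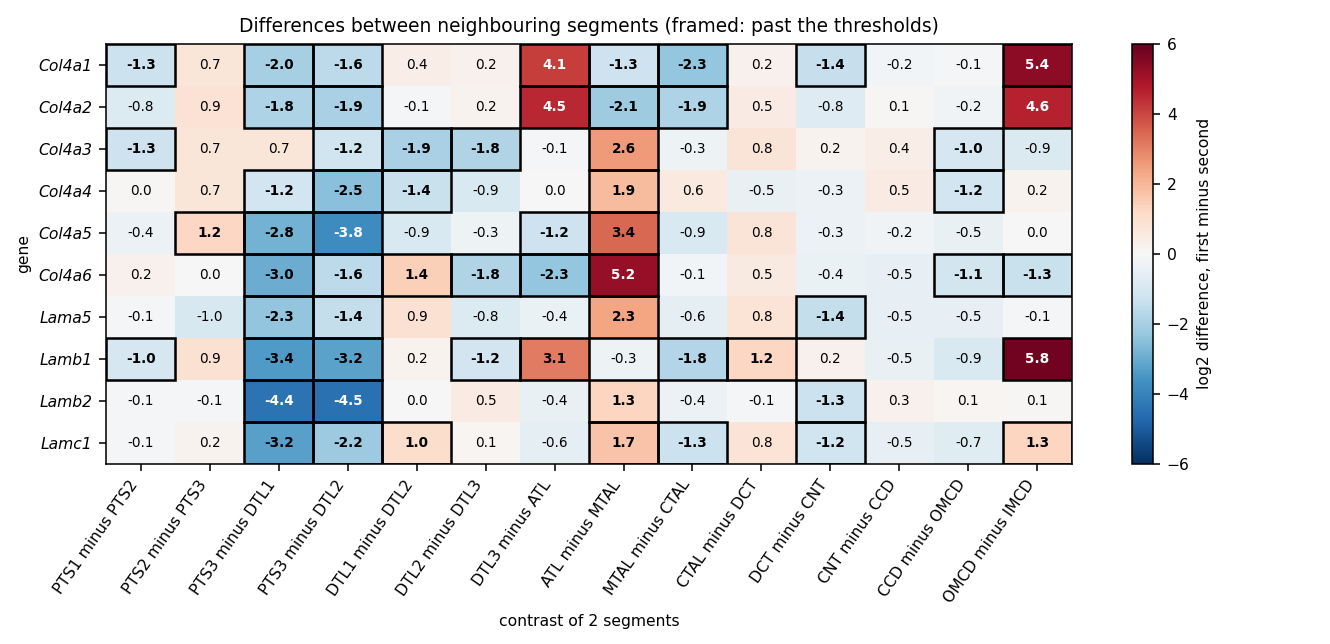
Log2 difference (colour and printed value, first structure minus second) of the 10 genes (rows) in 14 contrasts of neighbouring segments (columns), framed and bold where the adjusted p was under 0.05 and the difference at least 1. The largest differences are Lamb1 (5.79) and Col4a1 (5.36) in OMCD minus IMCD and Col4a6 (5.22) in ATL minus MTAL.

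The balance between chains shifted along the nephron. Col4a1 and Col4a2 together made up 63.4% ± 2.63 of the summed collagen IV TPM in CCD (SD, n = 5), 61.6% ± 7.57 in DTL1 and 56.1% ± 2.18 in CNT (both n = 3). In GL the share was 44.7% ± 4.96 (n = 3), with 55.01% from Col4a3, Col4a4 and Col4a5. It was 12.3% ± 2.69 in MTAL, 17.0% ± 4.92 in DTL3, 1.56% ± 1.01 in IMCD (each n = 3) and 0.727% ± 0.792 in ATL (n = 4, range 0.104% to 1.82%). No ATL or IMCD mouse overlapped any mouse of the other 13 structures in this share, the nearest being an MTAL mouse at 10.2%. The collagen IV sum itself was 1157 ± 310 TPM in GL, 749 ± 162 in ATL, 689 ± 40.7 in DTL3 and 94.9 ± 4.55 in PTS1.

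Lamb2 made up 97.8% ± 1.86 of Lamb1 plus Lamb2 in IMCD and 88.2% ± 1.90 in GL (both n = 3). This share leaves out Lamb3, a further beta chain, which averaged 180 TPM in IMCD and 161 TPM in ATL. Lamb2 averaged 89.3 TPM in IMCD and 84.2 TPM in ATL. ATL (70.4%), CNT (68.6%) and CCD (56.7%) also held more Lamb2 than Lamb1, and CTAL (23.4%), DTL3 (17.0%), PTS1 (15.9%) and PTS2 (9.49%) held mostly Lamb1. IMCD and GL did not overlap in this share, at 95.7% to 99.2% and 86.2% to 89.9%. IMCD and ATL, both low in the share of Col4a1 and Col4a2, differed in Lamb1, which was 34.4 TPM in ATL (24.7 to 46.0 over the 4 mice) and higher there by 3.81 on the log2 scale (SE 0.21, limma adjusted p = 1.89e-19).

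**Figure D4:**
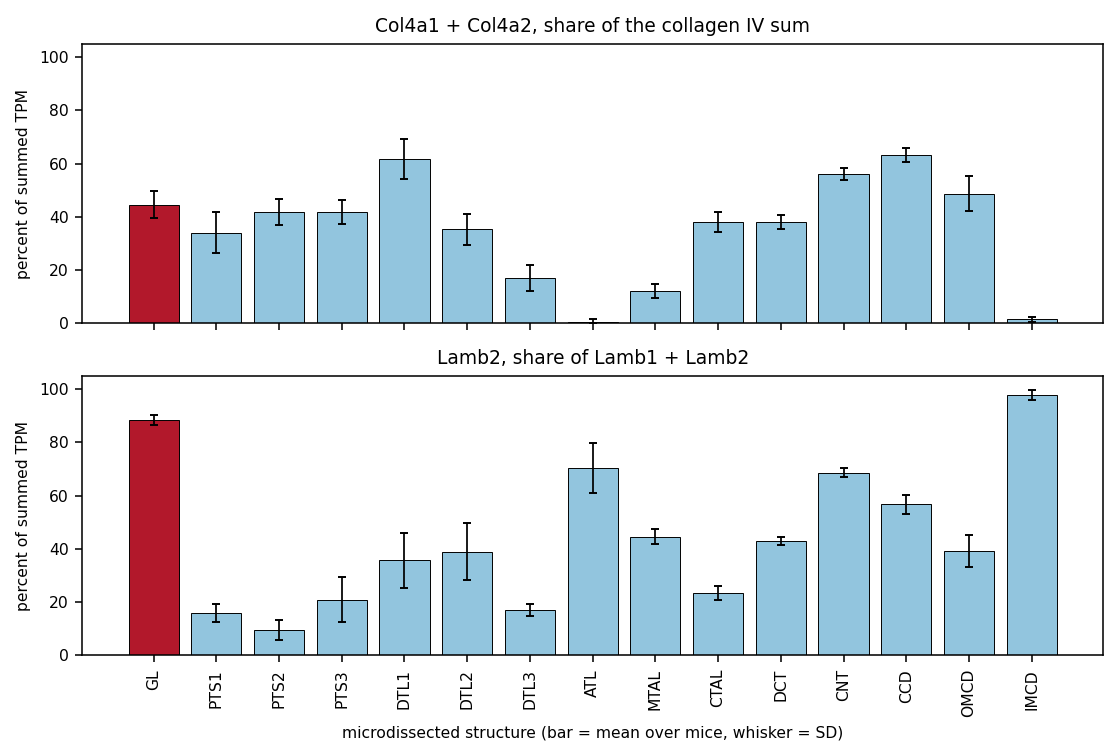
Percent of summed TPM (vertical axis) held by Col4a1 plus Col4a2 among the 6 collagen IV genes (top) and by Lamb2 in Lamb1 plus Lamb2 (bottom). The 15 structures have bars for the mean over mice, GL in red, and whiskers for the SD. Lamb3 is not part of the bottom panel. ATL and IMCD hold 0.727% and 1.56% in the top panel, and IMCD and GL lead the bottom panel with 97.8% and 88.2%.

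Blood vessels also make Col4a1 and Col4a2, so the level of 10 endothelial markers (Pecam1, Cdh5, Kdr, Emcn, Flt1, Tek, Eng, Egfl7, Plvap and Ehd3) is given beside them. Their summed TPM was 6574 to 6968 in GL, 3502 to 4775 in DTL1, 1408 to 2513 in DTL2 and 841 to 1957 in DTL3, and 10 of 10 averaged at least 1 TPM in each of these structures, as did 9 in CCD, 10 in ATL and 8 in IMCD. The sum was 519 to 663 TPM in OMCD, 362 to 409 in CNT and 183 to 292 in CCD. It was 228.5 to 308 TPM in ATL and 53.8 to 361 in IMCD, so CCD, ATL and IMCD had overlapping endothelial sums while Col4a1 was 113 to 144 TPM in CCD and at most 13.2 TPM in ATL and IMCD. CCD also had a higher Col4a1 mean than DTL1 (126 against 119 TPM) at an endothelial sum whose highest mouse was far below the lowest of DTL1. None of the 10 markers was at 0 in all mice of any structure, and the part of endothelial RNA in the levels of Col4a1 and Col4a2 was not tested.

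The podocyte markers Podxl and Synpo measured 2058 to 2948 and 1543 to 2004 TPM in the GL mice, and the 11 mesangial, smooth muscle and stromal markers summed to 851 to 1181 TPM in GL and at most 87.4 TPM elsewhere. Podocytes are the known source of the alpha 3, alpha 4, alpha 5 chains in the glomerulus. In ATL and DTL3, where Col4a3 reached the GL range, Synpo averaged 3.08 and 11.5 TPM, and Nphs1, another podocyte marker, 0.65 and 1.72 TPM against 193 TPM in GL. The GL samples mix podocytes with endothelial, mesangial and other cells, and which of them held each chain was not tested.

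**Figure D5:**
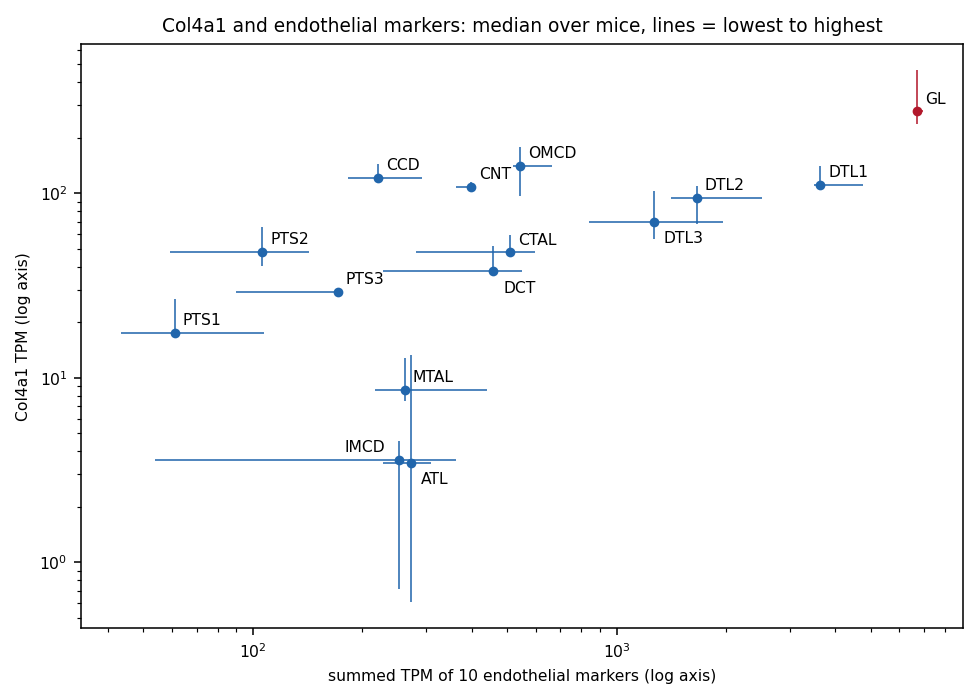
Col4a1 TPM (vertical log axis) against the summed TPM of 10 endothelial markers (horizontal log axis) in the 15 structures, each point a median over mice with lines from the lowest to the highest mouse, GL in red. CCD lies above IMCD and ATL at a similar endothelial sum, with 113 to 144 TPM of Col4a1 against at most 13.2.

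Genes with the most similar profile were listed for each member by Pearson's r over the 15 structure means, which share libraries and number only 15. After each other, Col4a1 and Col4a2 were closest to Arpc5 (r = 0.92 and 0.91), an actin nucleation subunit, and Pomt2 (0.91 and 0.91), an O-mannosyltransferase, both highest in GL. Col4a3 was closest to Arhgef16 (0.91), Lyg1 (0.90) and Phf21b (0.89), and Col4a4 to Nepro (0.93), Kdm5d (0.93) and Dmpk (0.92). Col4a5 was closest to Mtmr6, Foxj3 and Tmem184b (0.97, 0.97 and 0.96) and Col4a6 to Nr6a1os, Cdon and Tsga10 (0.97, 0.97 and 0.95), all of them highest in ATL. For the laminins the first gene was Rrnad1 for Lama5 (0.98), Bbs12 for Lamb1 (0.91), Pea15a for Lamb2 (0.97) and Armcx2 for Lamc1 (0.97). Lyg1 and Phf21b peaked at means of 0.63 and 2.37 TPM.

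The wider set of basement membrane genes, 41 in 6 lists, was compared between GL and the 14 segments in the same fit. Of these 29 were higher and 1 lower in GL, against 31.6% of all genes higher and 3.94% lower, with a median difference of 1.71 on the log2 scale against 0.69 for all genes. Median ratio rescaling gave 24 higher and 3 lower, and quantile normalization 25 and 6. The lists were chosen with earlier results of these data known and are a description.

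The linkers that bind laminin to collagen IV, and the proteoglycans, were higher in GL for 6 of 6 genes, led by the nidogens Nid1 (5.30, SE 0.32, limma adjusted p = 7.64e-19) and Nid2 (3.20, SE 0.30, adjusted p = 9.18e-13) and by Col15a1 (2.48). Nid1 averaged 225 TPM in GL and 81.0 TPM in DTL1, whereas Nid2 was higher in DTL1 (355 TPM) than in GL (66.3 TPM). Of the other laminin chains 3 of 7 were higher, against the 31.6% of all genes, and 0 lower: Lama4, a chain of vascular laminins (2.77, SE 0.30, limma adjusted p = 9.08e-11), Lama2 (2.07) and Lamc3 (1.11). Lamb3, a beta chain of epithelial laminin, did not pass in GL but averaged 161 TPM in ATL, 180 in IMCD and 87.2 in DTL3 against at most 25.7 TPM elsewhere. In ATL and IMCD the mean of Lamb3 thus exceeded those of both Lamb1 and Lamb2.

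Among the 6 associated matrix proteins 3 were higher in GL, against the 31.6% of all genes: Npnt (3.06), an integrin ligand, Tinagl1 (2.45) and Ntn4 (2.21), and Tinag, the tubulointerstitial nephritis antigen, was the 1 gene lower (-3.25, SE 0.22, limma adjusted p = 8.46e-17). Tinag averaged 284 TPM in PTS1, 147 in PTS2 and 72.6 in PTS3, where Lamb2 and Lamc1 were lowest. It was not confined to these segments, at 97.4 TPM in CTAL, 39.5 in DTL2 and 23.8 in MTAL. In CTAL Lamb2 and Lamc1 averaged 43.8 and 18.5 TPM. Of the receptors 9 of 11 were higher in GL, led by the integrin subunits Itga8 (7.22, SE 0.27, limma adjusted p = 2.57e-26), Itga2 (3.54) and Itga3 (3.45), the last a subunit of the laminin receptor of podocytes. Itga2, a collagen-binding subunit, averaged 62.2 TPM in IMCD against 17.0 in GL and at most 0.74 TPM elsewhere.

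Of the genes for folding, modifying and crosslinking collagen IV, 7 of 10 were higher in GL and 0 lower, against 31.6% and 3.94% of all genes. Pxdn, the peroxidase that forms the sulfilimine crosslinks of collagen IV, differed by 4.54 (SE 0.30, limma adjusted p = 3.6e-17), the prolyl hydroxylase subunit P4ha2 by 2.56 and the collagen chaperone Serpinh1 (HSP47) by 2.21. Serpinh1 averaged 254 TPM in GL and 214 in CTAL but 8.47 TPM in ATL (2.53 to 15.03 over the 4 mice) and 1.7 TPM in IMCD, the structures in which Col4a1 and Col4a2 were lowest. MTAL, the next lowest for both genes, was not low in Serpinh1. There ATL minus MTAL was -3.95 (SE 0.33, limma adjusted p = 6.52e-14), and MTAL minus CTAL (-0.76, limma adjusted p = 0.177) did not pass. P4ha2 averaged 1.25 to 1.93 TPM in CNT, CCD and OMCD, 62.9 TPM in IMCD and 127 TPM in ATL (98.6 to 185 over the 4 mice), which overlapped GL and DTL3. Lmx1b, the podocyte transcription factor of nail-patella syndrome, was higher in GL by 4.94 (SE 0.18, limma adjusted p = 1.44e-26) and averaged 35.9 TPM there and at most 2.34 TPM elsewhere.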

How the data were processed

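RNA of microdissected glomeruli and tubule segments was sequenced after SMARTer cDNA synthesis and Nextera XT library preparation, per the labels' protocols. The deposited table gives TPM, computed by the authors. STAR 2.5.4a and RSEM 1.3.0 are named in the submitters' processing notes, and their roles and the genome build are not given in the sources used here. All 93 sample columns were used and 0 left aside. They summed to 999999 to 1000190 TPM, and since TPM keep no depth, read depth is unknown. The name of 1 PTS2 column carries mouse number 2 but piece b, which matches no sample title. It was counted as a PTS2 mouse of its own, the only PTS2 column with number 2, and left out of the fit with the mouse number as a block. The 3 single-cell samples were not analysed here.

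Log2(TPM + 1) was averaged over the up to 3 pieces of a mouse number and segment, giving 53 values, counted as mice. Genes with at least 1 TPM in at least 3 mice were kept (33793). limma 3.58.1 in R 4.3.3 (lmFit, eBayes with trend) was fitted to all 15 groups together, with two-sided contrasts, the moderated F-test and, for genes higher in 1 structure than in all others, the largest one-sided p of the 14 contrasts. P-values were Benjamini-Hochberg adjusted over all genes within each test. Differences on this scale understate those of low genes. Simulated data held 33793 genes, of which 200 were changed by 2 on the log2 scale. The fit recovered 94.5% of the 200 in GL against segments (1 other gene called) and 90% in OMCD against IMCD (9 others called). Recovery was lower in PTS2 against PTS3, at 89.5% (9 others called), and by the F-test, at 87.5% (8 others called). In the measured data 93.9% of genes differed among structures, so these figures do not give error rates for the measured data. Tables and figures used Python 3.11.15, pandas 2.3.3 and matplotlib 3.10.9.

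Members and lists were chosen with earlier results of these data known. All 10 members are named. For likeness the 3 genes with the highest r per member are listed, passing over predicted, Rik, mitochondrial, ribosomal protein and pseudogene names. From each matrix list up to 3 genes called higher and 3 called lower in GL are named. Nid1 and Nid2 in DTL1, Lamb3, and the levels of Itga2, Serpinh1, P4ha2 and Tinag by structure were picked after their values were seen. Some listed genes are not reported here. Alternatives were other pseudocounts and filters, other scalings, pieces averaged as TPM, samples taken as independent, the mouse number as a block, each pair of ATL mice, and each mouse left out.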

Additional observations from a re-analysis of the deposited data

Results flagged for a closer look

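Within the 5 structures with 4 or 5 mice, 6 of 50 sets of values held 1 mouse whose gap to the nearest other mouse took up most of the range, where chance flags about 1 in 20. Col4a1 in CTAL was 59.4 TPM in mouse 1 and 46.3 to 49.3 in the other 4 mice. Col4a2 in CCD was 26.9 TPM in mouse 5 and 30.6 to 31.8 in the others. Col4a5 in OMCD was 27.2 TPM in mouse 1 and 34.8 to 36.2 in the others. Lama5 in ATL was 156 TPM in mouse 4, 1 of the 2 ATL mice with the higher number of genes detected, and 106 to 111 in the others. Lamb1 in CCD was 95.0 TPM in mouse 4 and 63.3 to 69.8 in the others. Lamc1 in PTS2 was 4.995 TPM in mouse 3 and 3.10 to 3.64 in the others. Each is a difference of less than 2-fold within its structure.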

How the results depend on the processing

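Of 73 calls on members, 62 kept their call without each single mouse and 45 kept it under every other alternative tried. The 10 members differing among structures remained 10 throughout. The 7 higher in GL remained 7, or became 8 with a pseudocount of 0.1, where Col4a6 was added. The 61 calls between neighbours ranged from 47 (quantile normalization) and 49 (median ratio rescaling, and a pseudocount of 5) to 64 (pseudocount of 0.1), and from 59 to 63 without 1 mouse. The 5 genes highest in 1 structure ranged from 3, without GL mouse 2, to 6 without 1 mouse, and were 4 with a pseudocount of 0.1 or rescaling. One direction turned (1 of the 73): Col4a4 in PTS3 minus DTL1 was 0.18 (limma adjusted p = 0.69) after quantile normalization against -1.17. Rescaling or quantile normalization weakened 16 and 18 calls. For PTS3 minus DTL1 the median gene moved from -1.33 to -0.93 and -0.00.

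Mouse numbers were not taken to pair the samples, since the labels do not say whether a number means the same animal. Deviations of same-numbered mice in other structures correlated at a median of r = -0.001. Of these pairs 22 of 290 were above 0.1, a larger share than the 32 of 968 pairs of different numbers. Because deviations were taken from the mean of each structure, a median near 0 cannot show that same-numbered samples are unrelated. With the mouse number as a replicate block, 61 neighbour calls and 4 genes highest in 1 structure were found, against 60 and 5 in the same mice without it, a fit added after the data were seen. The depth behind each TPM is unknown, so low values such as Col4a6 in the proximal tubule carry no counting interval.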
